A study of Homo sapiens with 5 samples.

Results

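The Polycomb repressor genes described here are 10 genes chosen by name, BMI1, RING1, RNF2, CBX2, EZH2, EZH1, SUZ12, EED, JARID2 and PHF19. All 10 were found among the 26506 genes of the deposited tables. They were measured by RNA sequencing of 22Rv1, a long established cell line from a human prostate carcinoma, kept in medium with 10% serum, with RNA taken 72 hours after lentivirus was added. There is 1 library in each of 5 groups. Cells given ESM1, a secreted proteoglycan also called endocan, have cells given Vector-1 as their control. Cells given ESM1-NLS and cells given ESM1-NES share Vector-2 as their control, where NLS usually stands for a signal that brings a protein into the nucleus and NES for one that takes it out. The transgene was seen in all its libraries: ESM1 RNA stood at 2437 FPKM with ESM1, 2627 with ESM1-NLS and 3431 with ESM1-NES, and was listed at 0 with either vector. FPKM is a read count divided by transcript length and by the depth of the library, so levels of different genes can be set side by side within a library. The header of the table with ESM1 and Vector-1 names no unit, and FPKM was taken from its values. The ESM1 and Vector-1 libraries stand in 1 table and the other 3 in another, normalised separately, so levels across the tables are given side by side only.

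Polycomb proteins keep genes silent through chromatin. Polycomb repressive complex PRC2 places methyl groups on a lysine of histone H3, and PRC1 places ubiquitin on histone H2A and compacts chromatin. In prostate cancer EZH2, the main PRC2 methyltransferase, is known for high levels in advanced disease, and BMI1 is known as a regulator of stem cell self-renewal that holds the CDKN2A locus silent. By its title the study is about ESM1 in the nucleus and stemness, and the comparisons here ask whether the RNA of the Polycomb machinery differed between cells with each ESM1 form and their vector.

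Depth, as the sum of expected counts, was 19975113 for ESM1-NLS, 18447256 for ESM1-NES and 24322216 for Vector-2. It was estimated at 13810009 reads in ESM1 and 15205270 in Vector-1. All 10 luminal prostate markers examined were at 1 FPKM or more in every library, with a sum between 1278 and 1446 FPKM. Endothelial markers summed to at most 0.09 FPKM, with CDH5 and KDR at 0 in all 5 libraries. Fibroblast markers summed to between 2.13 and 4.04 FPKM, with COL1A1 as their highest gene, and leukocyte markers to between 2.41 and 3.49 FPKM, with CD68 as their highest. Each group being 1 library, differences between groups could not be checked against replicates, and none has a p-value. Values in parentheses after a ratio are exact 95% intervals (Clopper-Pearson) on reads. They cover counting error only, and a ratio whose interval leaves out 1 differs between those libraries by more than counting, which says nothing of the spread between cultures. In these bulk samples fewer cells of a kind and less RNA per cell cannot be told apart.

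BMI1 is the member whose reads are hardest to assign, because its gene lies within a readthrough locus, COMMD3-BMI1, that begins at the gene upstream of it. RefSeq lists separate starts for BMI1 and COMMD3, and which start was used in these libraries was not measured. The sequences below are the 250 bases before the more upstream of the RefSeq starts of BMI1 (GRCh38.p14, chr10:22320849-22321098, plus strand) and before the start of COMMD3 (chr10:22316138-22316387, plus strand). COMMD3-BMI1 has the same window as COMMD3, and the BMI1 start lies 4711 bases downstream of it. Capitals mark CG dinucleotides, the sites that the CXXC domain of KDM2B, a subunit of variant PRC1, recognises when they are unmethylated.
BMI1: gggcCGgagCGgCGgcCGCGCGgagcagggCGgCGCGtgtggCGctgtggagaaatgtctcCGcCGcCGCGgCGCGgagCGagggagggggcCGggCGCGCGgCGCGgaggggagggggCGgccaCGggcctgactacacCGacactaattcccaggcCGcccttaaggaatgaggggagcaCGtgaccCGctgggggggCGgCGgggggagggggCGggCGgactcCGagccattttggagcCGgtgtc
COMMD3: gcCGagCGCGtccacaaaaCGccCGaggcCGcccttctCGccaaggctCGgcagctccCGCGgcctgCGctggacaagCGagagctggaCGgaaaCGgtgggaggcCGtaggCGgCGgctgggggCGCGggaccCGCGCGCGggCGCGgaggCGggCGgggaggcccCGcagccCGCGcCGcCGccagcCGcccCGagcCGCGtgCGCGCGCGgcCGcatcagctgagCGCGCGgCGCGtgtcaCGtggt
The BMI1 stretch holds 35 CG dinucleotides and is 76.8% G and C, and the COMMD3 stretch holds 47 and is 80.0% G and C. Both are rich in CG: windows of 300 bases around these starts hold 36 and 53 of them, against a median of 14 over 35116 RefSeq promoter windows. RefSeq promoter windows were matched for 9 of the 10 members, and CBX2 had none. Among their 13 windows a single match to the E2F motif was found, written TTTCGCGC or TTTGGCGC and searched on both strands. It lies in the more upstream of the EZH2 windows, begins at base 2 when the start is counted as base 1, and reads TTTGGCGC. Over all windows 1.15% hold a match.

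In the RNA, PRC1 was represented most by RING1. RING1, one of the paired ubiquitin ligases of the complex, had an FPKM of 34.6 in ESM1 with 37.0 in Vector-1, and of 41.3 in ESM1-NLS and 41.7 in ESM1-NES with 36.1 in Vector-2. Its paralog RNF2, also called RING1B, had an FPKM of 12.6 in ESM1 with 14.4 in Vector-1, and of 13.8 in ESM1-NLS and 11.5 in ESM1-NES with 13.5 in Vector-2. RING1 was thus the more abundant ligase RNA in all 5 libraries. BMI1, which activates the ligases in canonical PRC1, had an FPKM of 17.3 in ESM1 with 17.4 in Vector-1, and of 11.9 in ESM1-NLS and 9.05 in ESM1-NES with 14.4 in Vector-2. CBX2, a chromodomain subunit that reads the PRC2 mark, had an FPKM of 9.17 in ESM1 with 8.52 in Vector-1, and of 12.5 in ESM1-NLS and 12.9 in ESM1-NES with 10.9 in Vector-2. BMI1 was lowest in ESM1-NES, and CBX2 was higher in all 3 libraries of the second table than in those of the first.

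Among the 4 members from the PRC2 core EZH2 was the most abundant in each library, though RBBP4 and RBBP7, histone-binding subunits that other complexes also use, had higher FPKM than EZH2 in all 5. It had an FPKM of 37.7 in ESM1 with 37.3 in Vector-1, and of 32.2 in ESM1-NLS and 32.6 in ESM1-NES with 35.7 in Vector-2. EZH1, its paralog with weaker methyltransferase activity, had an FPKM of 4.68 in ESM1 with 4.64 in Vector-1, and of 7.31 in ESM1-NLS and 6.36 in ESM1-NES with 6.99 in Vector-2. The first table therefore held relatively less EZH1 than the second. SUZ12, a scaffold subunit that PRC2 needs for stability, had an FPKM of 29.3 in ESM1 with 36.2 in Vector-1, and of 21.6 in ESM1-NLS and 17.9 in ESM1-NES with 23.7 in Vector-2. EED, which binds the methyl mark and stimulates the enzyme, had an FPKM of 18.3 in ESM1 with 18.8 in Vector-1, and of 14.9 in ESM1-NLS and 13.9 in ESM1-NES with 14.3 in Vector-2. SUZ12 was below its own vector in every ESM1 library, whereas EED differed from its vector by less than counting in each. SUZ12 has a partial pseudogene copy, SUZ12P1, listed at 2.26 FPKM in ESM1 with 3.73 in Vector-1 and at 3.22 in ESM1-NLS and 5.92 in ESM1-NES with 4.96 in Vector-2, and reads of the shared stretch could be assigned to either. Both genes had whole expected counts in the second table.

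The accessory subunits were, together with EZH1, the least abundant members in each library. JARID2, which helps to recruit PRC2 to chromatin, had an FPKM of 2.08 in ESM1 with 1.92 in Vector-1, and of 4.36 in ESM1-NLS and 3.76 in ESM1-NES with 4.89 in Vector-2. PHF19, a Polycomb-like protein that binds methylated lysine of histone H3, had an FPKM of 5.36 in ESM1 with 7.15 in Vector-1, and of 3.31 in ESM1-NLS and 4.39 in ESM1-NES with 3.29 in Vector-2. Few reads stood behind PHF19 in the second table, 151 for ESM1-NLS, 168 for ESM1-NES and 188 for Vector-2.

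RING1 or EZH2 was first and SUZ12 in place 3 in every library. In Vector-2 it ran from RING1 and EZH2, whose counting intervals of 34.3 to 38.0 FPKM and 34.3 to 37.2 FPKM overlap, to SUZ12, then BMI1, EED and RNF2 between 13.5 and 14.4 FPKM, then CBX2, EZH1, JARID2 and PHF19. BMI1, EED and RNF2 do not differ beyond counting there. With either tagged form BMI1 as listed was in place 7 of 10, against place 4 in Vector-2. With the NLS form its counting interval of 11.1 to 12.7 FPKM overlaps that of CBX2, at 11.8 to 13.3 FPKM. Summed with COMMD3-BMI1, BMI1 came to 17.4 FPKM with the NLS form, 15.0 with the NES form and 18.8 with Vector-2. Each sum lay between SUZ12 and EED of its library, which is place 4. With the NES form the sum was within the counting interval of EED, 12.8 to 15.1 FPKM. In ESM1 and in Vector-1 EZH2 was first, and JARID2 was last.

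**Figure D1:**
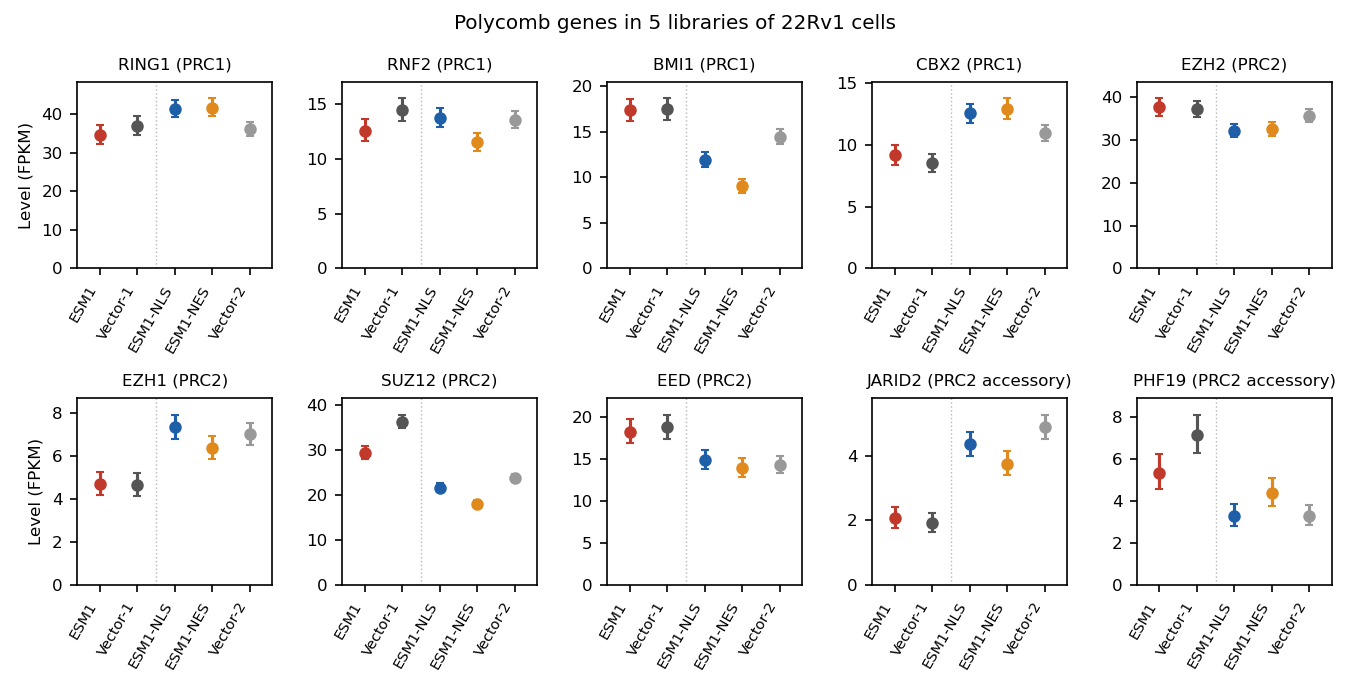
Level of each Polycomb gene in FPKM in the 5 libraries, 1 point per library, with bars for the 95% counting interval (Poisson on reads, counting error only) and a dotted line between the separately normalised tables. BMI1 is lowest in ESM1-NES at 9.05 FPKM, and SUZ12 lies below its vector in ESM1, ESM1-NLS and ESM1-NES.

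ESM1 against Vector-1 asks whether the untagged form came with a change in the machinery. Most members lay close to their Vector-1 level, and the exceptions were SUZ12 and PHF19, both of PRC2, which were lower in ESM1. SUZ12 had a ratio to Vector-1 of 0.810 (0.761 to 0.861), with an estimated 1786 reads in ESM1 and 2429 in Vector-1. PHF19 was at 0.750 (0.611 to 0.918), with an estimated 164 and 241 reads. RNF2 was also below 1, at 0.870 (0.781 to 0.970).

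The measure used to count members was the difference of log2(FPKM + 1), which understates the change of low genes. By it 2 of 10 members, SUZ12 at -0.30 and PHF19 at -0.36, were at least 1.2-fold lower, against 5.31% of the 12296 genes whose mean reached 1 FPKM. None of the 10 was at least 1.2-fold higher, against 10.0% of those genes. The median over the members was -0.02, with 6 below 0 and 4 above, and over all genes 0.01. EZH2 had a ratio of 1.01 (0.939 to 1.09), EZH1 1.01 (0.859 to 1.18), EED 0.973 (0.871 to 1.09) and BMI1 0.994 (0.902 to 1.09), so these 4 genes did not differ beyond counting. RING1 had a ratio of 0.936 (0.850 to 1.03), CBX2 1.08 (0.952 to 1.22) and JARID2 1.08 (0.871 to 1.35). Set against Vector-2 instead, across tables, SUZ12 and PHF19 in ESM1 lay the other way, with differences of 0.30 and 0.57. There 3 members, SUZ12, PHF19 and EED, were at least 1.2-fold higher, against 15.7% of 12702 genes, and 2, EZH1 and JARID2, at least 1.2-fold lower, against 30.3%. The vectors themselves were apart: SUZ12 in Vector-1 was 1.53 times its Vector-2 level, PHF19 2.17 times and JARID2 0.393 times, and vector, culture and table cannot be told apart there.

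ESM1-NLS against Vector-2 asks the same of the form with the NLS. The members lay near their Vector-2 level. BMI1 was the lowest, at 0.825 of its Vector-2 level (0.753 to 0.903), and RING1 and CBX2 were the highest, at 1.14 (1.06 to 1.23) and 1.15 (1.05 to 1.25). EZH2 had a ratio of 0.902 (0.846 to 0.961) and SUZ12 one of 0.911 (0.858 to 0.967).

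On the log2(FPKM + 1) scale 0 of 10 were at least 1.2-fold lower, against 4.63% of 13000 genes, and 0 of 10 at least 1.2-fold higher, against 7.05%. BMI1, with a difference of -0.26, lay just within the limit. With a pseudocount of 0.1, with centring on the median of all genes or with expected counts scaled by TMM or DESeq2 factors it lay past it, so that the count of lower members became 1. The median over the members was 0.01, with 4 below 0 and 6 above, and over all genes 0.02. RNF2 had a ratio of 1.02 (0.932 to 1.11), EED 1.04 (0.942 to 1.15), EZH1 1.05 (0.942 to 1.16), JARID2 0.892 (0.794 to 1.0) and PHF19 1.01 (0.807 to 1.25). The last interval is wide, and a change of 1.2-fold in PHF19 would not have been detectable at this depth.

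ESM1-NES against Vector-2 showed the widest spread among the members. BMI1 had a ratio to Vector-2 of 0.628 (0.567 to 0.695), with 560 expected reads in ESM1-NES and 1179 in Vector-2. SUZ12 was at 0.756 (0.708 to 0.806) and JARID2 at 0.769 (0.678 to 0.871). On the higher side were PHF19 at 1.33 (1.08 to 1.65), CBX2 at 1.18 (1.08 to 1.29) and RING1 at 1.16 (1.07 to 1.25). RNF2 was at 0.850 (0.774 to 0.933), on the other side of 1 from its paralog RING1. Set against genes of similar length and base composition both turned, with differences of -0.04 for RING1 and 0.03 for RNF2.

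At least 1.2-fold lower were 3 of 10 members, BMI1, SUZ12 and JARID2, against 18.4% of 12902 genes. At least 1.2-fold higher was 1 of 10, PHF19, against 11.7%. Past 1.5-fold lower was BMI1 alone, 1 of 10 against 2.16% of all genes. The median over the members was -0.12, with 7 below 0 and 3 above, and over all genes it was -0.03. EZH2 had a ratio of 0.913 (0.856 to 0.974), EZH1 0.910 (0.814 to 1.02) and EED 0.972 (0.874 to 1.08). In the authors' deposited table BMI1 had a fold change of 0.650 in ESM1-NES and 0.814 in ESM1-NLS, over Vector-2. A score named PPEE stands beside it in the authors' deposited table, the name that EBSeq gives to a probability of equal expression, and there BMI1 had 0.866 in ESM1-NES and 0.992 in ESM1-NLS, and the other members and COMMD3-BMI1 had at least 0.983. A score under 0.05 was held by 0.578% of 20056 genes with a score in ESM1-NES and 0.592% of 20282 in ESM1-NLS, and by no member.

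**Figure D2:**
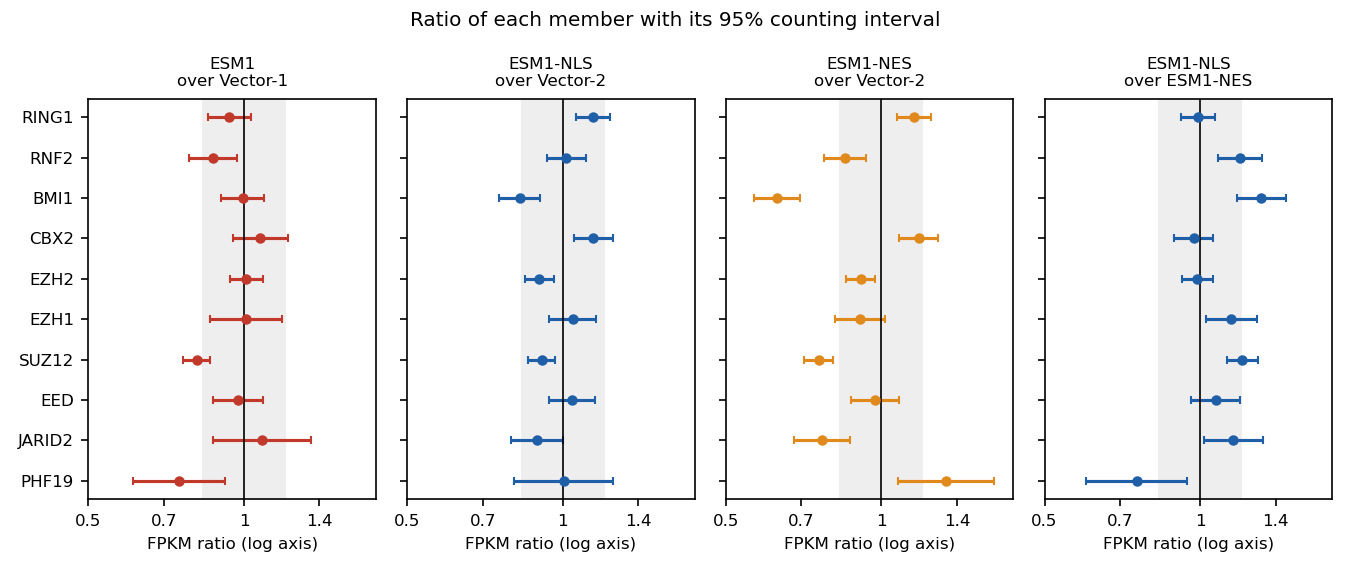
Ratio of FPKM of each member in 4 comparisons on a log axis, with bars for the exact 95% counting interval and a grey band for less than 1.2-fold. ESM1-NES over Vector-2 has the widest spread, with BMI1 at 0.628 and PHF19 at 1.33.

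The tagged forms can also be set against each other without the vector. BMI1 was 1.31 times as high in ESM1-NLS (1.18 to 1.47), SUZ12 1.21 times (1.13 to 1.29), RNF2 1.2 times (1.09 to 1.32), JARID2 1.16 times (1.02 to 1.32) and EZH1 1.15 times (1.02 to 1.29). PHF19 was lower in ESM1-NLS, at 0.754 of its ESM1-NES level (0.601 to 0.945). The remaining members, EZH2, RING1, CBX2 and EED, had ratios of 0.988 (0.922 to 1.06), 0.991 (0.918 to 1.07), 0.971 (0.889 to 1.06) and 1.07 (0.961 to 1.2). On the log2(FPKM + 1) scale BMI1 alone was at least 1.2-fold higher, 1 of 10 against 14.9% of 12915 genes, and PHF19 alone at least 1.2-fold lower, 1 of 10 against 6.60%. SUZ12, at 0.26, lay just within the limit. The median over the members was 0.13 and over all genes 0.06.

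The division of reads between BMI1 and COMMD3-BMI1 differed between the libraries. Of the members only BMI1 had expected counts that were not whole numbers, as also for COMMD3-BMI1 and COMMD3, and those of the other 9 were within 0.005 of a whole number in each of the 3 libraries. COMMD3-BMI1 had an FPKM of 7.19 in ESM1 with 8.47 in Vector-1, and of 5.47 in ESM1-NLS and 5.91 in ESM1-NES with 4.40 in Vector-2. Of the reads of both loci it took 31.2% in ESM1-NLS and 39.2% in ESM1-NES, against 23.2% in Vector-2, and an estimated 29.1% in ESM1 and 32.4% in Vector-1. Where BMI1 was lower than Vector-2 the readthrough locus was higher, at 1.34 times in ESM1-NES (1.16 to 1.56) and 1.24 times in ESM1-NLS (1.07 to 1.44).

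The summed loci had 15.0 FPKM in ESM1-NES against 18.8 in Vector-2, a ratio of 0.795 (0.732 to 0.864), and 17.4 FPKM in ESM1-NLS, a ratio to Vector-2 of 0.923 (0.854 to 0.997). Together they were 1.16 times as high in ESM1-NLS as in ESM1-NES (1.06 to 1.27), and in ESM1 they were at 0.946 of Vector-1 (0.873 to 1.03). The sum in ESM1-NES thus lay below Vector-2 by less than BMI1 as listed. COMMD3, the upstream gene, had an FPKM of 73.1 with the NES form, 65.4 with the NLS form and 68.4 with Vector-2, with ratios to Vector-2 of 1.07 (0.989 to 1.16) and 0.957 (0.885 to 1.04).

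**Figure D3:**
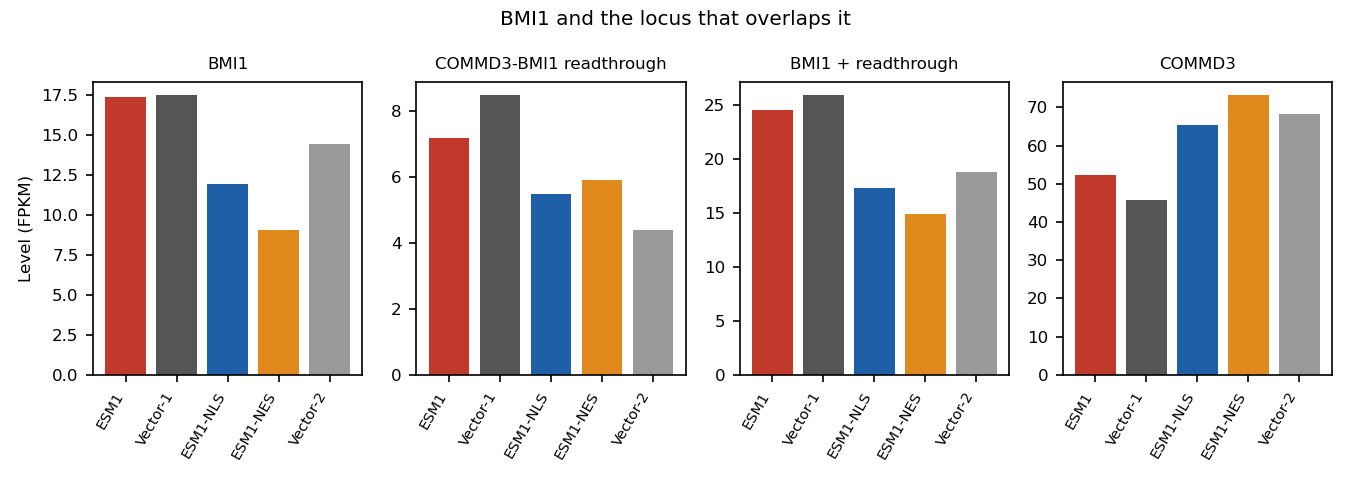
Levels in FPKM of BMI1, of the readthrough locus COMMD3-BMI1, of their sum and of COMMD3, 1 bar per library, with no error bars since each group has 1 library. In ESM1-NES BMI1 is the lowest of the 5 libraries, and the readthrough is above its Vector-2 level of 4.40 FPKM.

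Paralogs kept or shifted their proportions. EZH2 was 8.06 times EZH1 in ESM1 (7.10 to 9.17) and 8.04 times in Vector-1 (7.12 to 9.09), and it was 4.41 times in ESM1-NLS (4.03 to 4.83), 5.13 times in ESM1-NES (4.65 to 5.67) and 5.11 times in Vector-2 (4.71 to 5.55). This proportion differed more between the tables than between any form and its vector. RNF2 was 0.276 of RING1 in ESM1-NES (0.252 to 0.302) and 0.333 in ESM1-NLS (0.306 to 0.362), against 0.375 in Vector-2 (0.347 to 0.405), and 0.363 in ESM1 (0.326 to 0.404) against 0.390 in Vector-1 (0.354 to 0.430). Set against genes of similar length and base composition, RNF2 and RING1 differed from Vector-2 by 0.03 and -0.04 in ESM1-NES. Before that their differences were -0.22 and 0.20. In ESM1-NLS they were at 0.06 and 0.00, against 0.02 and 0.19 before. The summed FPKM of RING1 and RNF2 was 53.2 in ESM1-NES and 49.6 in Vector-2, a ratio of 1.07 (1.01 to 1.14). It was 55.1 in ESM1-NLS, a ratio to Vector-2 of 1.11 (1.05 to 1.17). In ESM1 it was 47.2 with 51.4 in Vector-1, a ratio of 0.917 (0.854 to 0.985), on the other side of 1. BMI1 was 0.548 of PCGF2 in ESM1-NES (0.491 to 0.612) and 0.702 in ESM1-NLS (0.637 to 0.774), against 0.943 in Vector-2 (0.865 to 1.03). In the first table BMI1 exceeded PCGF2, at 1.6 times in ESM1 (1.42 to 1.82) and 1.53 times in Vector-1 (1.36 to 1.72), and these intervals overlap. PCGF2 is the paralog that can take the place of BMI1 in canonical PRC1, and its own ratio to Vector-2 was 1.08 (0.980 to 1.19) in ESM1-NES and 1.11 (1.01 to 1.22) in ESM1-NLS. BMI1 as compared here leaves out COMMD3-BMI1. With it the sum was above PCGF2 in Vector-2, at 18.8 against 15.3 FPKM, and in ESM1-NLS, at 17.4 against 16.9 FPKM. In ESM1-NES the sum was below PCGF2, at 15.0 against 16.5 FPKM.

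Summed by complex, the 4 core PRC2 members came to 90.0 FPKM in ESM1 against 96.9 in Vector-1, a ratio of 0.928 (0.890 to 0.968). They were at 76.0 FPKM in ESM1-NLS, 70.8 FPKM in ESM1-NES and 80.7 FPKM in Vector-2, with ratios to Vector-2 of 0.942 (0.907 to 0.977) and 0.877 (0.843 to 0.912). The 4 PRC1 members summed to 73.7 FPKM in ESM1 against 77.4 in Vector-1, a ratio of 0.952 (0.904 to 1.0). They were at 79.5 FPKM in ESM1-NLS, 75.1 FPKM in ESM1-NES and 74.96 FPKM in Vector-2, with ratios of 1.06 (1.02 to 1.11) and 1.0 (0.960 to 1.05). In ESM1-NES the PRC1 sum was level with Vector-2 while BMI1 and RNF2 were below it and RING1 and CBX2 above.

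In ESM1-NES the side on which most members lay went with the base composition of the transcript, as for genes at large. SUZ12, RNF2, EED and BMI1 have transcripts of 38.4%, 38.9%, 39.1% and 41.1% G and C, and all 4 were below Vector-2 in FPKM, though EED was above it by 0.01 with TMM and 0.02 with DESeq2 scaling. RING1, CBX2 and PHF19 have transcripts of 61.6%, 62.2% and 57.2%, and all 3 were above it. Among all genes with transcripts under 42% G and C the median difference in ESM1-NES was -0.22, and 41.5% of those 2157 genes were at least 1.2-fold lower. Among those of 55% or more it was 0.17, and 28.4% of those 4180 genes were at least 1.2-fold higher. Across 12261 genes the Spearman rho of the difference with G and C content was 0.64 and with effective length -0.59, and across the 10 members 0.68 and -0.50. Genes are not independent replicates, and libraries and depth are shared by all points.

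Each difference was then set against the median of genes in the same of 25 bins of length and G and C content. In ESM1-NES BMI1 was then at -0.47 against -0.62 before, and it was the single member past 1.2-fold and no longer past 1.5-fold. SUZ12 was at -0.14 against -0.39 before, JARID2 at -0.05 against -0.31, RNF2 at 0.03 against -0.22, RING1 at -0.04 against 0.20, CBX2 at 0.10 against 0.22 and PHF19 at 0.17 against 0.33. In ESM1-NLS, where rho with G and C content was 0.53 over all genes and 0.45 over the members, RING1 and CBX2 were both at 0.00 against 0.19 and 0.18 before, and BMI1 at -0.23 against -0.26. In ESM1 against Vector-1, with a rho of 0.32 over all genes, PHF19 was at -0.43 against -0.36 before, SUZ12 at -0.24 against -0.30 and RING1 at -0.23 against -0.09. BMI1 is given here as listed, without COMMD3-BMI1. In ESM1-NES the sum of both loci was at -0.31 before the bins, and it was not set against them. What part base composition or length has in these differences was not tested.

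**Figure D4:**
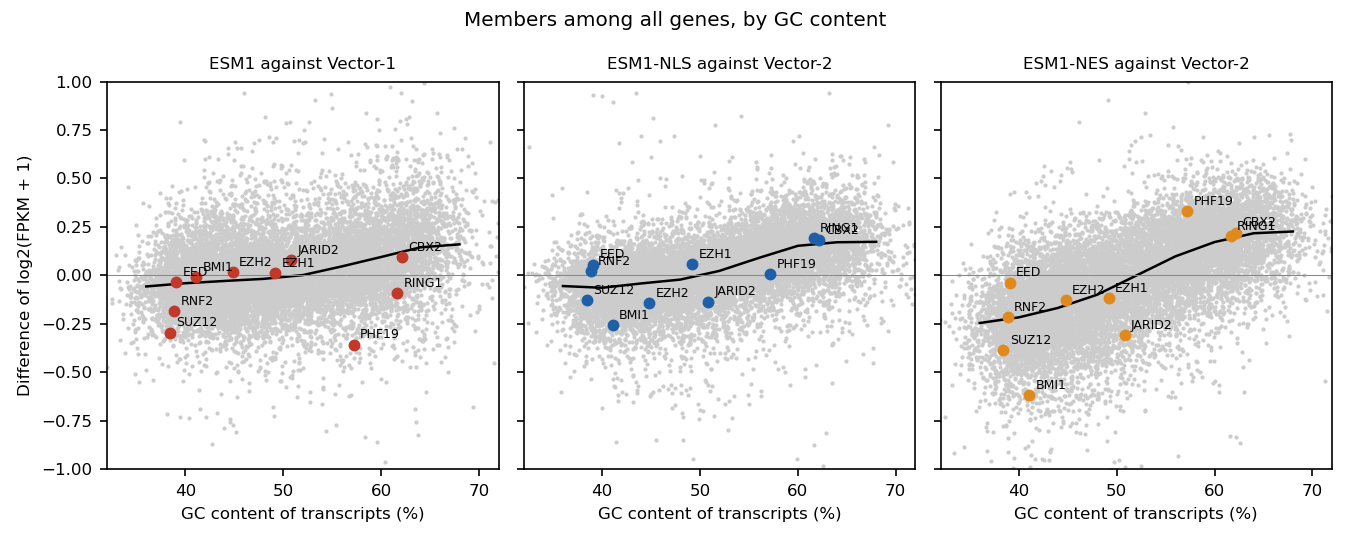
Difference of log2(FPKM + 1) against the G and C content of transcripts in percent, with all genes whose mean reached 1 FPKM in grey (differences between -1 and 1 shown), their median in steps of 4 percentage points as a black line, and the 10 members in colour. In ESM1-NES the line climbs with G and C content, and BMI1 as listed, without COMMD3-BMI1, lies at -0.62, farther from it than the other members.

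The rest of the Polycomb system was examined in lists, described by counts and medians on the same scale, and in each the 3 genes farthest from 0 are named. For each list the medians over all genes are 0.01 in ESM1, 0.02 in ESM1-NLS and -0.03 in ESM1-NES, and the shares of all genes past 1.2-fold are those given for the members. Among 8 further PRC2 genes the median was -0.13 in ESM1, -0.03 in ESM1-NLS and -0.18 in ESM1-NES, each against its own vector. Of these 8, 1 was at least 1.2-fold lower in ESM1, 1 higher in ESM1-NLS and 3 lower in ESM1-NES. LCOR, whose locus also encodes a PRC2 accessory protein, led in ESM1-NES with a ratio of 0.634 (0.577 to 0.697), followed by LCORL at 0.743 and AEBP2, which joins PRC2 with JARID2, at 0.814. After the bins of length and G and C content the list's median in ESM1-NES was 0.04. LCOR was then at -0.17, LCORL at -0.12 and AEBP2 at 0.11, against -0.54, -0.36 and -0.27 before. In ESM1-NLS the largest was PHF1, a relative of PHF19, at 1.23 (1.13 to 1.34), with LCOR at 0.847 and RBBP4, a histone-binding core subunit, at 0.901. In ESM1 they were LCOR at 0.802 of Vector-1, PHF1 at 1.18 and AEBP2 at 0.877.

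Among 22 further PRC1 genes the median was -0.10 in ESM1, 0.05 in ESM1-NLS and -0.07 in ESM1-NES. At least 1.2-fold lower were 4, 2 and 6 of them in that order, and at least 1.2-fold higher 0, 0 and 2. PHC3, a polyhomeotic subunit, had a ratio of 0.549 in ESM1-NES (0.504 to 0.598) and MGA, of a variant PRC1, one of 0.580 (0.544 to 0.618), while PCGF1, of another variant PRC1, was at 1.33 (1.17 to 1.51). In ESM1-NLS MGA was at 0.707, PHC3 at 0.701 and SCML2, a Polycomb protein related to Drosophila Scm, at 0.836. In ESM1 SCML2 was at 0.725 of Vector-1 (0.654 to 0.804), MGA at 0.788 and AUTS2 at 0.751. PHC3 and MGA have effective lengths of 12628 and 11857 bases, and after the bins of length and G and C content their differences in ESM1-NES were -0.38 and -0.38, against -0.70 and -0.70 before. The median of the list in ESM1-NES was then -0.004. The Polycomb deubiquitinase, which removes the PRC1 mark, had medians of -0.08 in ESM1, 0.04 in ESM1-NLS and -0.14 in ESM1-NES over its genes. ASXL2, a cofactor of the enzyme, led in ESM1-NES at 0.527 of Vector-2 (0.476 to 0.583), with OGT at 0.801 and FOXK1 at 0.828, and 2 of 9 genes were at least 1.2-fold lower. After the bins the list's median in ESM1-NES was 0.02, and ASXL2 was at -0.46 against -0.78 before. In ESM1-NLS ASXL2 was at 0.769, HCFC1 at 0.835 and MBD6 at 1.16, with 1 of 9 lower. In ESM1 ASXL2 was at 0.846, OGT at 0.886 and BAP1, the enzyme of the complex, at 1.11, with 0 of 8 past the limit.

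Trithorax proteins oppose Polycomb silencing. In the list of Trithorax genes and demethylases of the PRC2 mark the median was -0.20 in ESM1-NES with 5 of 12 at least 1.2-fold lower, -0.10 in ESM1-NLS with 4 of 12 lower and -0.03 in ESM1 with 1 of 12 lower. The histone methyltransferase genes KMT2C, KMT2A and ASH1L had ratios of 0.536, 0.549 and 0.571 in ESM1-NES, and KMT2A, KMT2C and KMT2D ones of 0.575, 0.646 and 0.692 in ESM1-NLS. In ESM1 the largest were KMT2C at 0.812, KMT2A at 0.844 and KMT2D at 0.854. Their effective lengths lie between 11727 and 19386 bases. After the bins the list's median was -0.07 in ESM1-NES and -0.15 in ESM1-NLS. In ESM1-NES KMT2C was then at -0.49, KMT2A at -0.51 and ASH1L at -0.41, against -0.81, -0.77 and -0.73 before. SWI/SNF remodeller genes had medians of -0.10 in ESM1, -0.08 in ESM1-NLS and -0.16 in ESM1-NES, which after the bins were -0.09, -0.06 and -0.02. Of 11 such genes 2, 3 and 5 were at least 1.2-fold lower in that order, and 0, 0 and 1 higher. PBRM1 at 0.622, ARID2 at 0.634 and SMARCB1 at 1.28 led in ESM1-NES, ARID1A at 0.784, ARID2 at 0.788 and PBRM1 at 0.796 in ESM1-NLS, and ARID2 at 0.777, ARID1A at 0.797 and SMARCA2 at 0.871 in ESM1. Other repressors, of histone H3 lysine 9 and DNA methylation, had medians of -0.03 in ESM1, 0.04 in ESM1-NLS and 0.01 in ESM1-NES. Of these 13, 1 was lower and 1 higher by at least 1.2-fold in each tagged form, and 0 in ESM1. CBX5, which encodes a heterochromatin protein, was at 0.842 of its vector level in ESM1, 0.745 with the NLS form and 0.647 with the NES form, and TRIM28, a corepressor, was at 1.29 in ESM1-NES and 1.19 in ESM1-NLS. Also among the farthest were DNMT3A at 0.837 in ESM1-NES, SUV39H1 at 1.33 in ESM1-NLS, and UHRF1 at 0.855 and EHMT1 at 1.14 in ESM1. After the bins the list's medians were -0.01 in ESM1, -0.03 in ESM1-NLS and 0.02 in ESM1-NES. In ESM1-NES TRIM28 was then at 0.17 against 0.36 before, CBX5 at -0.29 against -0.61 and DNMT3A at -0.26 against -0.23. In ESM1-NLS TRIM28 was at 0.05 against 0.24, SUV39H1 at 0.13 against 0.26 and CBX5 at -0.33 against -0.42.

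Of 26 genes known as Polycomb targets, 13 in ESM1 and 15 in each tagged form reached a mean of 1 FPKM with their vector. HOXD10, HOXD11, SOX17 and RUNX3 were listed at 0 in all 5 libraries, and the list's medians were 0.01 in ESM1, 0.04 in ESM1-NLS and -0.05 in ESM1-NES. CDKN2A, the classic target of BMI1, stood at 24.1 FPKM in ESM1 against 19.8 in Vector-1, a ratio of 1.22 (1.04 to 1.42). It was at 33.4 FPKM in ESM1-NLS, 42.2 FPKM in ESM1-NES and 37.3 FPKM in Vector-2, with ratios to Vector-2 of 0.895 (0.812 to 0.986) and 1.13 (1.03 to 1.24). Its ESM1-NLS level was 0.791 of that in ESM1-NES (0.715 to 0.874). CDKN2A transcripts are 61.4% G and C. After the bins its difference between the tagged forms was -0.17 against -0.33 before. In ESM1 against Vector-1 it was 0.09 after the bins and 0.27 before. PAX6, a developmental regulator, stood at 1.90 FPKM in ESM1 against 0.790 in Vector-1, a ratio of 2.41 (1.64 to 3.59), and CDKN1C, which encodes a cell cycle inhibitor, at 1.39 FPKM in ESM1 against 2.32 in Vector-1, a ratio of 0.599 (0.379 to 0.931). In Vector-2, across tables, PAX6 stood at 2.36 FPKM, above its ESM1 level. KLF2, a transcription factor gene, was at 1.97 FPKM in ESM1-NLS, 1.76 FPKM in ESM1-NES and 0.960 FPKM in Vector-2. DAB2IP, a tumour suppressor gene that EZH2 silences in prostate cancer, had a ratio of 1.27 (1.16 to 1.39) in ESM1-NLS and CDKN2B one of 1.39 (1.06 to 1.83). In ESM1-NES CDKN1C was at 0.814 (0.654 to 1.01) and GATA6 at 0.812 (0.684 to 0.961) of Vector-2. At least 1.2-fold higher were 2 of 13 targets in ESM1, 3 of 15 in ESM1-NLS and 1 of 15 in ESM1-NES, and lower 1, 0 and 0. After the bins the list's medians were -0.05 in ESM1, -0.02 in ESM1-NLS and -0.06 in ESM1-NES. In ESM1-NLS DAB2IP was then at 0.13 against 0.31 before, CDKN2B at 0.16 against 0.27 and KLF2 at 0.48 against 0.60. In ESM1-NES KLF2 was at 0.20 against 0.49, CDKN1C at -0.49 against -0.25 and GATA6 at -0.36 against -0.24.

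The list named here E2F and RB genes, which act upstream of EZH2, also held CCNE1, MYC and MYCN. Its median was -0.02 in ESM1, -0.02 in ESM1-NLS and 0.02 in ESM1-NES. Of 11 genes 1 was at least 1.2-fold lower in ESM1 and 3 in ESM1-NES, and 1 was higher in each tagged form. E2F4 was at 1.26 of Vector-2 in both tagged forms, and RBL1 and RB1, the brakes on E2F, were at 0.707 and 0.778 in ESM1-NES. In ESM1-NLS MYC was at 1.14 and CCNE1 at 1.14, and in ESM1 E2F2 was at 0.810, MYCN at 1.35 (0.863 to 2.11) and E2F5 at 1.2 (0.974 to 1.47) of Vector-1. RB1 and RBL1 transcripts are 37.8% and 40.0% G and C, and after the bins their differences in ESM1-NES were -0.10 and -0.05. E2F4 transcripts are 58.9% G and C. After the bins E2F4 was at 0.20 in ESM1-NLS and 0.17 in ESM1-NES, against 0.32 before in both.

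Between the tagged forms, the lists had medians of 0.16 for the further PRC2 genes, 0.12 for PRC1, 0.19 for the deubiquitinase, 0.04 for Trithorax, 0.07 for SWI/SNF, 0.06 for the other repressors, 0.11 for targets and 0.07 for E2F and RB genes, against 0.06 over all genes. At least 1.2-fold higher in ESM1-NLS were 3 of 8, 3 of 22, 2 of 9, 2 of 12, 2 of 11, 1 of 13, 3 of 15 and 3 of 11 genes in that order, and 1 gene each was lower in the Trithorax, target and E2F lists. ASXL2, at 1.46 times its ESM1-NES level (1.31 to 1.63), was the farthest from 0 of the genes named in these lists. AEBP2 at 1.31, PCGF5, the ring finger subunit of another variant PRC1, at 1.26, RYBP, a variant PRC1 subunit, at 1.25 and KDM6A, a demethylase of the PRC2 mark, at 1.29 lay on the same side as BMI1, SUZ12 and RNF2. So did LCOR at 1.34, LCORL at 1.29, PHC3 at 1.28, OGT at 1.31, ASH1L at 1.26, PBRM1 at 1.28, ARID2 at 1.24, DNMT3A at 1.26, RBL1 at 1.35 and RB1 at 1.26. CDKN2B at 1.42, SETDB1 at 1.18 and CBX5 at 1.15 did as well. DPY30 at 0.802, E2F1 at 0.815, SMARCB1 at 0.839 (0.792 to 0.889) and HCFC1 at 0.849 (0.793 to 0.908) lay on the other, as did CDKN2A. Over all genes the difference between the tagged forms had a rho of 0.58 with effective length and -0.37 with G and C content. After the bins the list medians were 0.08, 0.01, 0.02, -0.04, -0.05, -0.03, 0.07 and 0.03 in the order given. ASXL2 was then at 0.22 against 0.45 before, BMI1 at 0.22 against 0.36, SUZ12 at 0.06 against 0.26 and RNF2 at 0.04 against 0.24. AEBP2 was at 0.10 against 0.36, and HCFC1 at -0.30 against -0.22. The cause was not tested.

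**Figure D5:**
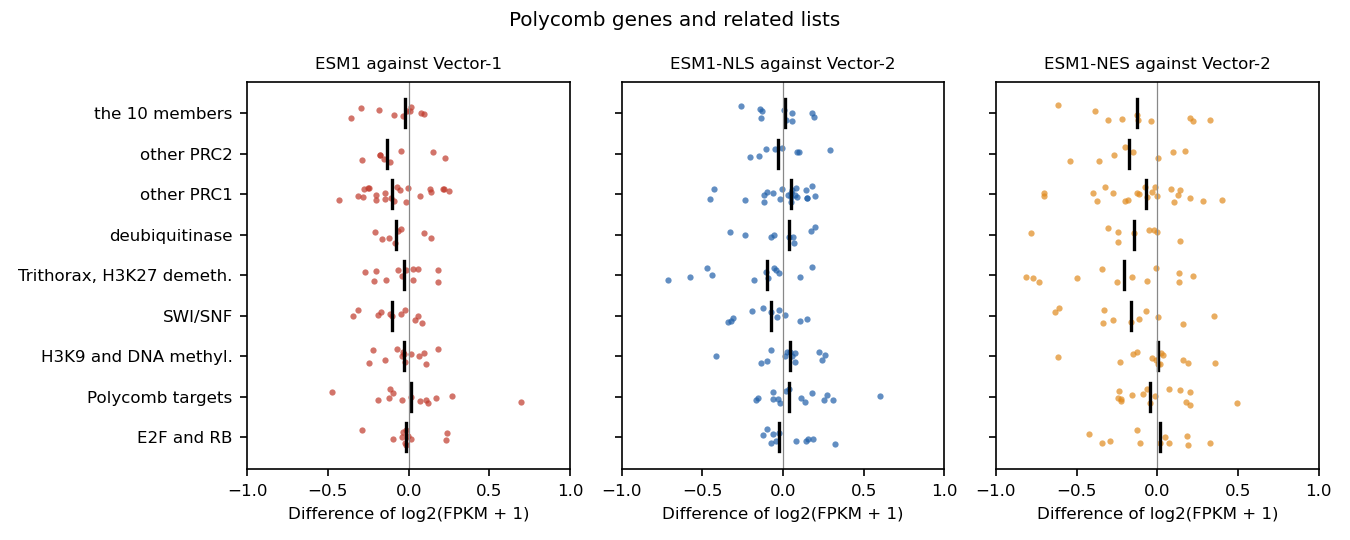
Difference of log2(FPKM + 1) for the 10 members and the genes of 8 related lists whose mean reached 1 FPKM, 1 point per gene, with the median of each list as a black bar. In ESM1-NES the Trithorax list has a median of -0.20 and the members one of -0.12, which after the bins (not drawn) were -0.07 and -0.01.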

How the data were processed

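Trimmomatic, Bowtie2, RSEM and hg19 are named in the submitters' processing notes, without versions or order. Whether reads were counted by strand is unknown, so reads from antisense partners cannot be told apart. The authors deposited expected counts, TPM and FPKM for ESM1-NLS, ESM1-NES and Vector-2, per the file headers, with a fold change (a ratio) and a PPEE score of their own. The deposited table of ESM1 and Vector-1 has no unit in its header, and its values were taken as FPKM.

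Depth of those libraries was estimated by searching for the total that turns low FPKM values into whole reads. With that total 89.1% of 211 low values for ESM1 and 89.8% of 186 for Vector-1 were whole to a tolerance of 0.15 reads, and on libraries of known depth the search erred by at most 1.05%. Effective length came from FPKM and expected counts, and G and C content from GENCODE 29 transcripts (23938 genes matched), of a newer build than hg19. Expected counts were rounded for intervals.

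The measure was the difference of log2(FPKM + 1), without a test. Scripts were tested on simulated data and used Python 3.11.15, scipy 1.17.1 and, for scaling only, edgeR 4.0.16 and DESeq2 1.42.0. The members and lists were chosen with earlier results of these data known. In each list the 3 genes with the largest absolute difference in each comparison and a mean of 1 FPKM or more were named. EPOP stands in the tables under its older symbol, C17orf96.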

Additional observations from a re-analysis of the deposited data

Results flagged for a closer look

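PHF19 lay on opposite sides of its vector in separate forms, with a ratio of 0.750 in ESM1 against Vector-1 and of 1.33 in ESM1-NES against Vector-2, and both counting intervals leave out 1. COMMD3-BMI1 likewise had a ratio of 0.849 in ESM1 against Vector-1, and of 1.24 in ESM1-NLS and 1.34 in ESM1-NES against Vector-2. The difference between the forms was not tested in either case, and the vectors are different libraries in separate tables.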

How the results depend on the processing

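No paired analysis was possible because each group has 1 library. For counts of members at least 1.2-fold lower, ESM1 against Vector-1 gave 1 with a pseudocount of 5 FPKM and 1 after centring on bins of length and G and C content, and ESM1-NLS against Vector-2 gave 1 with a pseudocount of 0.1 FPKM, 1 after centring on the median of all genes, 1 with TMM and 1 with DESeq2 scaling. ESM1-NES against Vector-2 gave 1 lower member after the bins, and its count of higher members was 0 with a pseudocount of 5 FPKM, the bins, TPM or TMM scaling. In ESM1-NLS against ESM1-NES, higher members numbered 2 with a pseudocount of 0.1 FPKM, 0 after the bins, 0 with BMI1 summed with COMMD3-BMI1 and 5 with TPM, and lower members 0 with a pseudocount of 5 FPKM and 0 with TPM. TPM moved the median over all genes in ESM1-NES against Vector-2 to -0.14 and in ESM1-NLS against ESM1-NES to 0.19, and the members' median in ESM1-NES to -0.24. With Vector-2 as control, ESM1 had 3 higher members, and SUZ12 at 0.30 and PHF19 at 0.57 changed direction. The cause was not tested. Of single member values, 5 moved and 2 reversed of 10 with Vector-2 as control, and 3 of 4 for BMI1 moved when it was summed with COMMD3-BMI1. With the bins 14 of 40 moved, with TPM 10 of 30 and with a pseudocount of 5 FPKM 1 of 40. Counting error limits PHF19 and JARID2 most, and no setting replaces replicates.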
